A study of Populus tremula with 16 samples.

Results

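In aspen leaves sampled through the autumn of 2011, 92 genes stood higher in early September than both before and after it. They were chosen from the 19769 gene IDs of the authors' normalised table. A gene was kept if its mean over 2 to 15 September was at least 10 normalised counts and at least 1.5 times both its mean over July and August and its mean over 18 September to 1 October. Of the 5324 IDs with an early September mean of 10 or more, 828 met the limit against summer, 1527 met the limit against the late dates, and 92 met both. The selection rests on these values, so the peak itself is a description here and is not tested.

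The leaves came from Populus tremula, the European aspen, with 1 RNA sequencing library per collection date. The summer group was 27 July and 5, 19 and 31 August (n = 4). The early September group was 2, 5, 9, 11, 13 and 15 September (n = 6), and the late group was 18, 22, 26 and 28 September and 1 October (n = 5). A 16th library, of 19 September, was left out because its counts differed from those of 18 September by less than the sampling noise, and 0 IDs had more counts on 19 than on 18 September. The labels name no treatment, genotype or tree age, do not say whether 1 tree or several were sampled or pooled, and give the dates as the sole difference between groups. Dates therefore serve as replicates, and p-values are set against the scatter among dates, in which real daily change and technical error are mixed. Neighbouring dates are not independent, so p-values are too small.

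Autumn senescence is the ordered breakdown of a leaf before it is shed. Chlorophyll and the photosynthetic proteins are taken apart, and nitrogen and other nutrients are moved back into the stem. The deposited tables give IDs that begin with Potri and do not pair them with gene names, so no function is given for any ID, and the leaf identity of the tissue was not checked against marker genes.

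Library depth differed between dates and bears on every value below. Totals ranged from 719419 to 6729131 counts, and the libraries of 11 and 15 September, 28 September and 1 October were among the shallow ones, with 719419, 836643, 1162665 and 756966 counts. A level of 10 normalised counts stood for 8.13 reads on 11 September and for 48.6 reads on 5 September. Where a library shows 0 reads, up to 3 could have been missed by counting error alone, which corresponds to 0.617 to 3.69 normalised counts. In bulk leaf RNA, fewer cells of a type and less RNA per cell cannot be told apart.

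The 92 genes were mostly of modest abundance. Their early September means had a median of 21.4 normalised counts and ran from 10.1 to 357, with 43 genes under 20 and 8 genes at 100 or more. The other 5232 IDs above the same minimum had a median of 18.2. The peaks were shallow. Early September stood at a median of 1.91 times summer, with quartiles of 1.65 and 2.31, and at a median of 2.07 times the late dates, with quartiles of 1.78 and 2.42. At least 2-fold on both sides was reached by 21 genes. In the edgeR quasi-likelihood fit, with an adjusted p limit of 0.05, 56 of the 92 genes were called higher than in summer and 0 lower, where 6.17% of all 18033 tested IDs were called higher and 7.48% lower. Against the late dates 87 were called higher and 0 lower, where 29.3% and 26.7% of all tested IDs were. Without 27 July, 5 August or 9 September in turn, 36 genes were called higher than in summer. In these fits, in order, 705 of 17430, 885 of 17514 and 794 of 17504 tested IDs were called higher. With library totals alone as the scale, 92 genes were called higher than in summer, where 37.5% of all tested IDs were called higher and 2.22% lower, and 67 higher than in the late leaves, where 21.0% were called higher and 34.5% lower. Both contrasts were used in the selection, so these counts are given as a description.

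The limits had near neighbours on both sides. The member nearest the abundance limit had an early September mean of 10.1, and the nearest ID outside it had 9.94. Against summer the nearest ratios were 1.5 inside and 1.49 outside, and against the late dates they were 1.51 and 1.49.

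Together the 92 genes took up 0.271% to 0.466% of a library's counts in early September, against 0.0997% to 0.161% in summer and 0.146% to 0.304% in late leaves. Such shares are on the scale of library totals. On it, IDs with an early September mean of 10 or more had a median log2 ratio to summer of 0.69. Their median log2 ratio of early September to the late dates was -0.31. On the deposited scale, the median course of the 92 genes was already above its earlier values on the last day of August. On the scale of log2(level + 1) over each gene's own summer mean, the median was -0.17 on 27 July, -0.31 on 5 August and -0.12 on 19 August, and 0.40 on 31 August. On the 6 early September dates, in order, it was 0.82, 0.71, 1.00, 0.93, 1.03 and 0.60. On 18, 22 and 26 September it stood at 0.38, 0.33 and 0.07. It was -0.97 on 28 September and -1.17 on 1 October, below all summer dates on this scale. As a share of library counts, the 92 genes held 0.150% and 0.146% on these last 2 dates, below the 0.161% of 31 August. Those shares lay above the other summer dates, which ran from 0.0997% to 0.120%. The median of the other 5232 IDs stayed between -0.22 and 0.28 on all these dates.

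**Figure D1:**
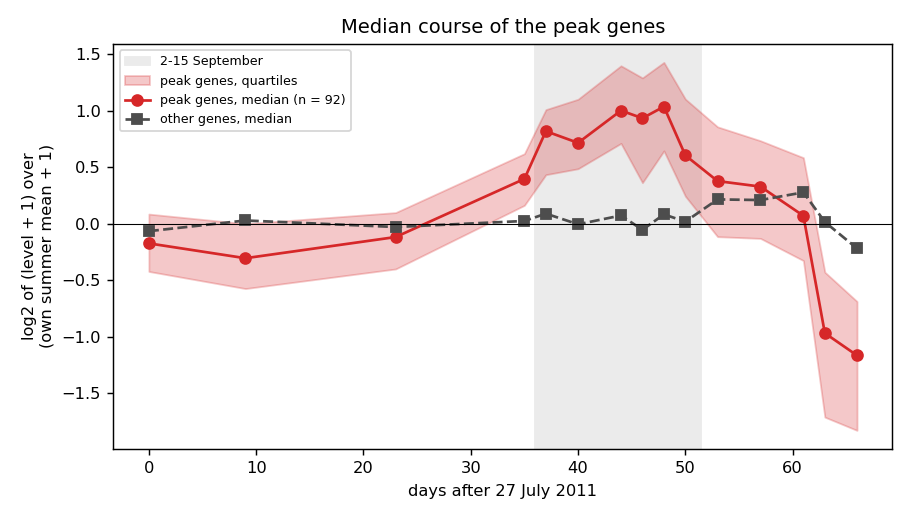
Median log2 of (level + 1) over (own summer mean + 1) by days after 27 July 2011, for the 92 peak genes (red, with quartiles as a band) and for 5232 other IDs with an early September mean of at least 10 (grey squares), with 2 to 15 September shaded. The red median reaches 1.03 on 13 September and falls to -1.17 on 1 October, while the grey median stays between -0.22 and 0.28. The selection fixed this contrast in part.

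The date of the highest level differed among the genes. It was 9 September for 25 genes, 13 September for 23 and 11 September for 21. It was 2 September for 8, 15 September for 8 and 5 September for 5. The remaining 2 genes met the limits on their means although their highest single value came on 18 September. Most genes did not stand clear on all 6 dates of early September. For 7 genes all 6 dates lay above all 9 other dates, for 12 genes 5 did, for 26 genes 4 did and for 29 genes 3 did. For the last 18 genes 2 dates or fewer did. Among the other 5232 IDs, 0.0382% had all 6 dates above all others. This order was fixed in part by the selection.

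**Figure D2:**
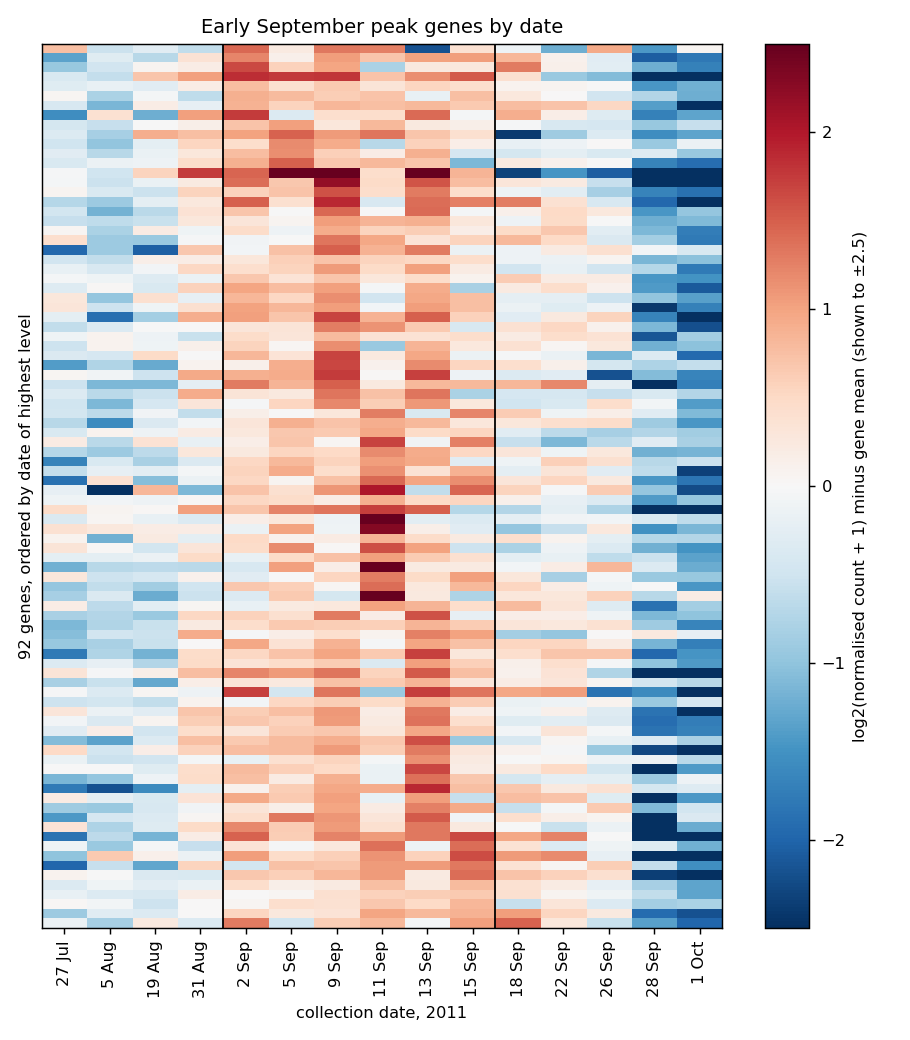
Each row is 1 of the 92 peak genes and each column 1 of 15 dates, with the colour showing log2(normalised count + 1) minus the gene's mean over the dates, and vertical lines marking the start and end of early September. Rows are ordered by the date of the highest level, and the blue columns at the right are 28 September and 1 October.

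Of the 7 genes with a full separation, the most abundant 2 are named here after their values were seen. Potri.001G088800 had 59.4, 83.2, 71.6 and 90.8 normalised counts on the 4 summer dates. It had 94.0, 125, 124, 154, 109.7 and 114 on the 6 early September dates, and 64.0, 49.0, 43.7, 46.6 and 42.2 on the 5 late dates. Its lowest early September value, on 2 September, was just above the value of 31 August, and all 5 late dates but 18 September lay below all 4 summer dates. Its means were 76.3 ± 13.7 in summer (SD, n = 4), 120.1 ± 19.97 in early September (SD, n = 6) and 49.1 ± 8.72 in late leaves (SD, n = 5).

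Potri.003G003400 had 21.1, 27.4, 31.4 and 55.1 normalised counts on the summer dates. It had 64.1, 74.6, 72.9, 71.3, 85.3 and 73.3 on the early September dates, and 58.5, 56.3, 61.5, 24.8 and 14.3 on the late dates. Its early September values lay close together, at 73.6 ± 6.85 (SD, n = 6), in shallow and deep libraries alike. Levels stayed near the plateau until 26 September and dropped on the last 2 dates.

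The genes with the largest excess over both sides varied more from date to date. Potri.004G060100 had the largest ratio to the higher of its summer and late means, 2.72. It stood at 27.8, 19.6, 25.6 and 33.9 normalised counts on the summer dates, and at 77.8, 46.5, 135, 40.6, 87.5 and 49.6 on the early September dates. On the late dates it had 35.5, 33.7, 18.9, 1.73 and 2.53, of which the last 2 values are 3 counts each. Its 6 early September dates lay above all other dates, but by a narrow margin on 11 September, where 33 counts gave the 40.6. Its means were 26.7 ± 5.91 (SD, n = 4) in summer, 72.8 ± 35.6 (SD, n = 6) in early September and 18.5 ± 16.2 (SD, n = 5) in late leaves.

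Potri.003G134600 followed with a ratio of 2.66. Its summer values were 6.27, 1.35, 3.80 and 15.3 normalised counts, its early September values 16.7, 13.0, 26.9, 14.8, 23.3 and 11.9, and its late values 6.12, 9.31, 11.7, 1.73 and 0. The groups overlapped on 31 August, which lay above 3 of the 6 early September dates. The value of 14.8 on 11 September rests on 12 counts and that of 11.9 on 15 September on 11.

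The most abundant gene of the set was also one of the least regular. Potri.019G087600 had 353, 144, 171 and 136 normalised counts on the summer dates, 565, 243, 518, 499, 45.2 and 272 on the early September dates, and 191, 88.2, 399, 76.0 and 218 on the late dates. Its lowest value of all 15 dates, 45.2 on 13 September, fell within the peak dates, and the values of 27 July and 26 September each lay above 3 of the 6 early September values. Means were 201 ± 102 in summer (SD, n = 4), 357 ± 203 in early September (SD, n = 6) and 194 ± 130.2 in late leaves (SD, n = 5), with wide overlap.

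Potri.008G054700, second in abundance, stood at 129, 112, 167 and 115 normalised counts in summer, at 197, 176, 215, 429, 136 and 416 in early September, and at 275, 164, 197, 145 and 81.8 late. Its early September mean of 262 ± 128 (SD, n = 6) leaned on 11 and 15 September, where the shallow libraries gave 349 and 386 counts. The values of the other 4 early September dates were in the range of the late ones.

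Single dates carried part of the set. Without its own highest early September date, a gene kept all 3 limits in 48 of 92 cases and lost at least 1 in 44. The highest date held a median of 24.9% of a gene's 6-date sum, against 21.8% in the other 5232 IDs. The extreme, named after its values were seen, was Potri.004G200400, with 66.5% of its sum on 11 September. It had 41.8 normalised counts that day, from 34 counts, and between 2.15 and 7.40 on the other 5 early September dates. Its summer dates ran from 1.27 to 3.15, and its late dates from 2.30 to 6.95, so without 11 September its early September values did not stand above the late ones.

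**Figure D3:**
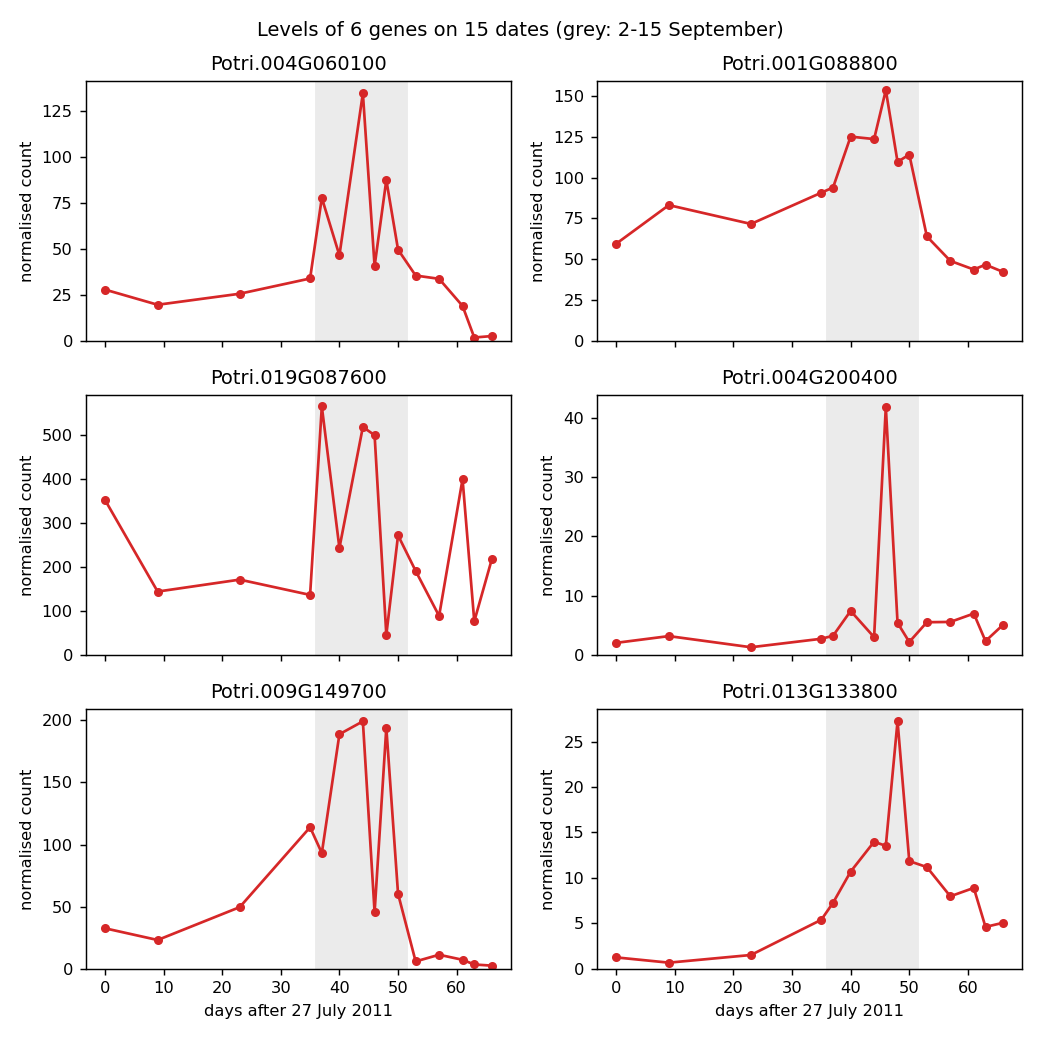
Normalised counts of 6 peak genes on 15 dates, against days after 27 July 2011, with 2 to 15 September shaded and each vertical axis starting at 0. Potri.001G088800 shows a plateau with all 6 shaded dates above the others, Potri.004G200400 a single high value of 41.8 on 11 September, and Potri.019G087600 high values inside and outside the shaded dates.

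Leaving a date out of the selection and then reading its level gives a level that the selection did not use. The means it is set against were still chosen to be low or high by the rule, which raises the ratios and shares below over those of the other IDs, and neighbouring dates are not independent. The values are therefore a description. Each of the 15 dates was left out in turn, which gave between 69 and 121 genes. Selected without 9 September, 83 genes were found, and on 9 September 78 of them lay above both their summer and their late mean, with a median of 1.75 times the higher of these. Of the other IDs above the minimum, 19.2% did so. Selected without 13 September, 75 of 89 genes did so on 13 September, at a median of 1.63. For 2 and 5 September it was 77 of 100 and 97 of 107, at medians of 1.44 and 1.46.

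The shallow dates gave smaller shares. Selected without 11 September, 65 of 98 genes (66.3%) lay above both means on that date, at a median ratio of 1.30. Selected without 15 September, 74 of 107 (69.2%) did so, also at a median of 1.30. Among the other IDs the shares were 15.4% on 11 September and 18.1% on 15 September. The shares for the selected genes thus ran from 66.3% to 94.0% over the 6 dates, against 15.4% to 21.0% for the others. A left-out date 1.5-fold above both means, the size of the selection limit, was reached by 36.7% to 65.1% of the selected genes and by 0.808% to 2.64% of the others.

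Summer and late dates left out of the selection also lay below the early September mean for most genes. On the summer dates the share was 97.7% for 27 July, 100% for 5 August, 92.3% for 19 August and 84.3% for 31 August, against 51.4% to 61.1% of the other IDs. On the 5 late dates, in order, it was 69.9%, 87.1%, 93.0%, 100% and 98.6%, against 41.3% to 57.8%. The early September mean was a median of 1.29 times the level of 31 August and 1.33 times that of 18 September, the dates next to the peak. It was 4.29 and 5.70 times the levels of 28 September and 1 October.

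**Figure D4:**
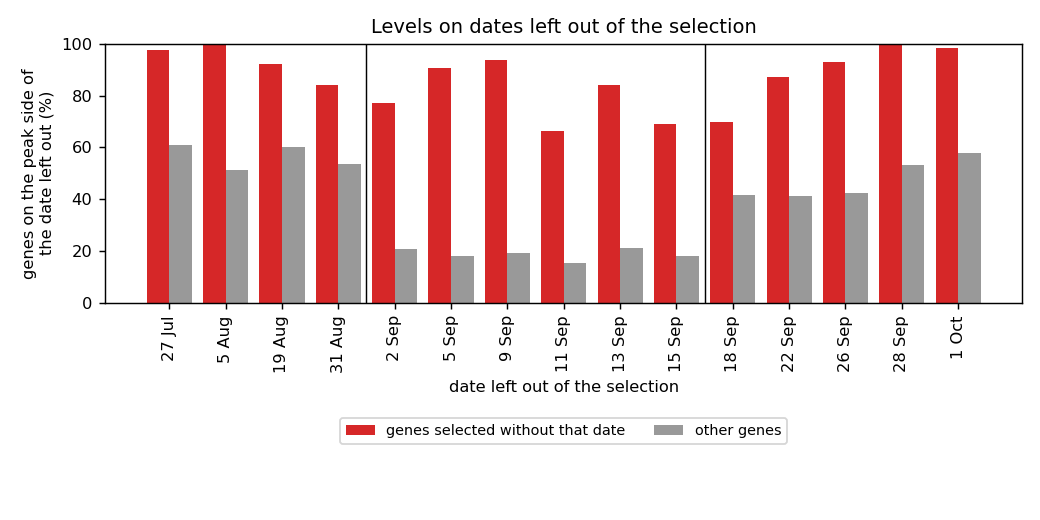
For each of 15 dates left out of the selection, the percentage of genes selected without it (red) and of other IDs above the abundance minimum (grey) whose level on that date was on the peak side, meaning above both the summer and late means for an early September date and below the early September mean for a summer or late date. Red bars run from 66.3% to 100% and grey bars from 15.4% to 61.1%.

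On 31 August most of the genes already stood above the rest of the summer. That date was above the 3 earlier summer dates in 63 of the 92 genes and below all 3 in 4 genes, where 27.3% of the other IDs had it above and 20% below. A high value on 31 August raises the summer mean and so works against selection. Selected without 31 August, 93 of 121 genes had it above the 3 earlier dates, against 26.8% of 5203 others. The rule keeps the mean of those 3 earlier dates low in the 121 genes and not in the others. That favours 31 August above them, so nothing is read from the difference in these shares. Potri.009G149700 is an example of a higher 31 August level, with 32.6, 23.2 and 49.6 normalised counts on the first 3 dates and 114 that day. Potri.013G133800 likewise had 0.674 to 1.52 normalised counts on those 3 dates, from 5, 3 and 6 counts, and 5.39, from 18 counts, on 31 August. The level of 2 September was above that of 31 August in 69 of the 92 genes, and the level of 18 September was below that of 15 September in 63. The other IDs had 55.8% and 38.5% in these orders, but the selection favours both orders in the 92 genes, so nothing is read from the difference.

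Within early September no gene of the set passed the test between 9 to 15 September (n = 4) and 2 and 5 September (n = 2). In the edgeR fit 0 of 92 genes met the adjusted p limit of 0.05 in either direction, and 0% of all 18033 tested IDs did. At an unadjusted p of 0.05, 6 genes and 893 IDs passed, DESeq2 called 8 IDs higher and 4 lower, with 0 of the 92 genes among them, and limma-voom called 0. The log2 differences of the 92 genes ran from -0.88 to 0.99 with a median of 0.24, against a median SE of 0.38. Of the 92, 69 were above 0, and the median over all tested IDs was -0.004. All 4 dates from 9 to 15 September lay above both 2 and 5 September in 6 genes and below both in 2, against 6.23% and 8.03% of the other IDs. A missed threshold with so few dates does not show equal levels.

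The dates within 9 to 15 September differed in turn. On both 11 and 15 September the level was below that of both 9 and 13 September in 43 of the 92 genes (46.7%), against 27.7% of the other IDs. It was above both in 17 genes (18.5%), against 14.9%. Potri.009G149700 shows this course, with 45.5 and 60.3 normalised counts on 11 and 15 September, against 199 and 194 on 9 and 13 September. The libraries of 11 and 15 September held 719419 and 836643 counts, against 4477500 and 2449021 for 9 and 13 September. The part of depth in this alternation was not tested.

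On 28 September and 1 October (n = 2), 49 of the 92 genes were lower and 0 higher than on 18 to 26 September (n = 3; edgeR, adjusted p limit 0.05). Of all 18033 tested IDs, 14.4% were lower and 18.7% higher. The median log2 fold change of the 92 genes was -1.39, against -0.17 for all tested IDs, and 2 of 92 lay above 0. Both last dates lay below all 3 dates from 18 to 26 September in 73 of the 92 genes, against 45.8% of the other IDs, and above them in 0 genes, against 27.3%.

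Low levels on the last 2 dates lower the late mean and so helped a gene into the set. With both dates left out of the selection, 57 genes were found, of which 54 were among the 92. Of these 57, 19 (33.3%) were lower on the last 2 dates, 1 was higher, and the median log2 fold change was -0.95. With library totals alone 34 of the 92 genes were lower and 0 higher, where 7.95% of all tested IDs were lower and 25.1% higher. On 28 September 4 of the 92 genes had 0 counts, and on 1 October 5 did. The libraries of 28 September and 1 October are shallow, and the part of depth in the fall was not tested.

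The largest falls reached levels near the detection floor. Potri.010G126300 had 1.15 and 0.844 normalised counts on 28 September and 1 October, against 48.3, 52.7 and 19.5 on 18, 22 and 26 September. The last 2 dates held 3 counts together, against 537 on the 3 dates before them. That is a ratio of 40.7 for 18 to 26 September over the last 2 dates. The 95% exact interval of 13.9 to 198 covers counting error in the summed reads and leaves out the scatter among dates. The gene was called lower on the last 2 dates (edgeR adjusted p = 4.1e-05). Its earlier values were 10.8 to 36.2 in summer and 31.2 to 72.2 in early September. Potri.015G086200 had 0 counts on both last dates and 3.17, 4.87 and 3.06 normalised counts, from 48 counts, on the 3 dates before. Against a floor of 3 counts over the last 2 dates it was at least 3.64-fold lower there (edgeR adjusted p = 0.0113), a call that ended without 28 September (adjusted p = 0.0884) or without 1 October (adjusted p = 0.0528). On 15 September it stood at 3.23 normalised counts, from 3 counts.

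How far the genes returned relative to summer varied. By their means, 61 of the 92 genes ended within 1.5-fold of summer, 21 ended lower and 10 higher. Among the other 5232 IDs these shares were 32.9%, 29.2% and 37.9%. The selection keeps both the summer and the late mean under the peak, which narrows the room for a difference between them. In the edgeR fit, with an adjusted p limit of 0.05, 23 genes (25%) were lower in late leaves than in summer leaves and 3 (3.26%) were higher, where 33.8% of all tested IDs were lower and 30.5% higher. The direction rests on the scale: with library totals alone 4 genes were lower and 41 higher. On that scale 16.8% of all tested IDs were lower and 51.7% higher. That scale puts the median over all tested IDs at a log2 change of 0.88, where the trimmed-mean scale puts it at -0.08. The median of the 92 genes was 0.70 and -0.28 on these scales, below that of all tested IDs on both. Without 31 August 14 genes were lower and 8 higher, where 5585 and 5318 of 17544 tested IDs were. Without 28 September the median log2 change of the 92 genes was -0.13, against -0.19 for all tested IDs. Without 1 October these medians were -0.14 and -0.13.

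Among the 23 genes lower in late leaves than in summer, Potri.015G086200 and Potri.009G149700 had the largest fitted changes, in an order that turned without 28 September or 1 October. Potri.009G149700 had 5.91, 11.3, 7.23, 3.46 and 2.53 normalised counts on the late dates, against 32.6, 23.2, 49.6 and 114 on the summer dates. All 5 late dates lay below all 4 summer dates, and the drop came between 15 September, at 60.3, and 18 September, at 5.91. Its log2 fold change of late over summer was -3.33 (SE 0.51, edgeR adjusted p = 1.2e-05), and -2.67 without 31 August, the highest summer date. Potri.015G086200 had 3.17, 4.87, 3.06, 0 and 0 on the late dates, against 8.53, 6.29, 6.07 and 13.2 on the summer dates. Its means were 2.22 ± 2.15 in late leaves (SD, n = 5) and 8.52 ± 3.30 in summer (SD, n = 4), and its groups did not overlap either. It was called lower (edgeR adjusted p = 0.000111), with a fitted log2 fold change of -3.86 that rests on 0 counts on the last 2 dates. The fitted value was -2.85 without 28 September, -2.85 without 1 October and -2.51 by limma-voom.

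The genes that stayed higher than in summer were Potri.013G133800, Potri.005G071300 and Potri.015G086800, of which the first passed under all 23 alternatives. Potri.015G086800 averaged 24.2 ± 9.77 normalised counts in late leaves (SD, n = 5) and 14.0 ± 5.39 in summer (SD, n = 4). Its log2 fold change of 0.68 (SE 0.29, edgeR adjusted p = 0.0458) missed the threshold under 11 of 23 alternatives (highest adjusted p = 0.170). Potri.013G133800 had 11.2, 7.98, 8.90, 4.61 and 5.06 normalised counts on the late dates, against 0.674 to 5.39 on the 4 summer dates. The groups overlapped through 31 August. It rose by 1.74 log2 units (SE 0.45, edgeR adjusted p = 0.00207), and by 2.61 without 31 August, after an early September course of 7.26, 10.7, 14.0, 13.5, 27.2 and 11.9. Potri.005G071300 had 9.71, 7.31, 5.84, 6.33 and 1.69 late, against 2.76, 3.82, 3.04 and 4.20 in summer, with 1 October, at 2 counts, below all summer dates. Its log2 fold change of 0.79 (SE 0.34) passed narrowly (edgeR adjusted p = 0.0493) and missed the threshold under 15 of 23 alternatives (highest adjusted p = 0.241).

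**Figure D5:**
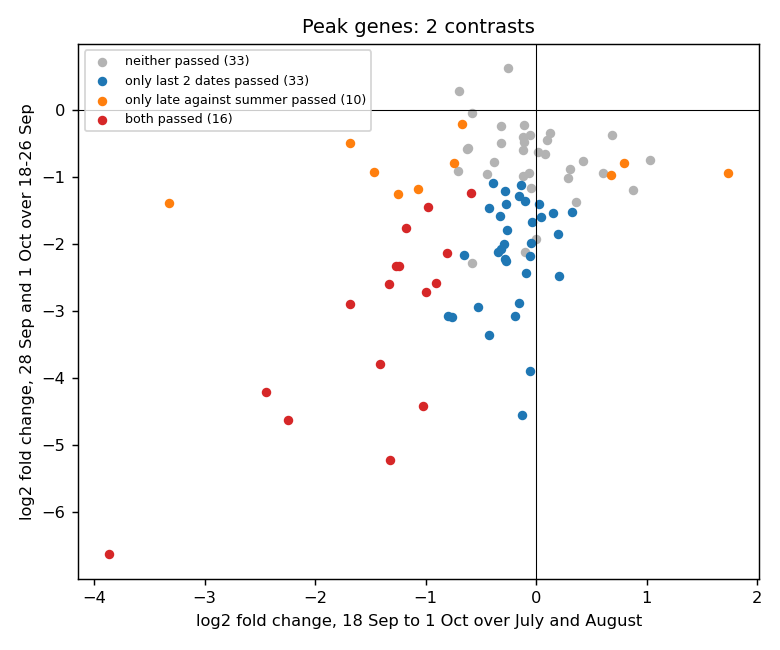
Each point is 1 of the 92 peak genes with its fitted log2 fold change of late over summer leaves on the horizontal axis and of 28 September and 1 October over 18 to 26 September on the vertical axis, coloured by which contrasts passed an adjusted p of 0.05 (edgeR). Both passed for 16 genes, the last 2 dates alone for 33, late against summer alone for 10 and neither for 33, and the lowest point, Potri.015G086200, is a fitted value from 0 counts on the last 2 dates.

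The IDs of the peak genes carried prefixes from 001 to 019, with a few close neighbours in number. Potri.T094800 and Potri.T128300 carried the prefix T. By prefix, 001 held 14 genes, 003 and 004 held 9 each, and 005 and 009 held 7 each. These were 2.22%, 3.01%, 2.98%, 2.07% and 2.57% of the IDs with that prefix above the abundance minimum, while prefix 002 held 1 gene, or 0.251%. Of the 92 genes, 13 (14.1%) had another within 500 units of the ID number, in 7 pairs. Of all IDs above the minimum, 2.91% had a peak gene that near. Whether similar neighbours share reads cannot be told from these tables, so values within a pair may not be independent.

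The longest run was Potri.001G064400, Potri.001G064900 and Potri.001G065300, which shared the date of their highest level, 13 September. Potri.001G064900, the most abundant of them, had 22.8, 17.8, 19.99 and 31.5 normalised counts in summer, 43.6, 38.9, 47.2, 27.1, 54.1 and 31.2 in early September, and 19.6, 23.3, 10.3, 1.15 and 0 late. The 3 genes had early September means of 10.5 ± 3.42, 40.3 ± 10.1 and 23.8 ± 7.61 (SD, n = 6 each). All 3 were lower on the last 2 dates than on 18 to 26 September (edgeR adjusted p = 0.0342, 5.99e-05 and 0.00923) and lower in late leaves than in summer (edgeR adjusted p = 0.0184, 3.14e-05 and 0.00107). Without 28 September Potri.001G064400 passed neither and Potri.001G065300 did not pass the first. Potri.001G064400 also missed the first without 18 September, and the second without 27 July or 31 August. It missed the first with DESeq2 and with relative log expression scaling. With library totals alone it passed neither, and Potri.001G065300 did not pass the second. Potri.001G064900 passed both under all 23 alternatives. Across the 15 dates, neighbouring members of the run correlated with r of 0.85 and 0.94 on the log2 scale, a description over dates that share the selection.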

How the data were processed

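The authors deposited raw counts per gene ID for 41335 IDs and a normalised table for 19769 of them. The tools named are STAR 2.4, HTSeq, Trimmomatic 1.0, FastQC 1.0 and CASAVA 1.8.2, with no role stated, per the submitters' processing notes. The sources used here name no genome build, annotation or strand setting. The deposited normalised table is a signal, raw counts over a factor for the library. Multiplied by that factor, 99.98% of values came within 0.01 of the raw count.

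Genes were selected on that table. Levels are its values. Raw counts of 15 libraries, without 19 September, entered edgeR 4.0.16 under R 4.3.3 (TMM, the trimmed-mean scale, filterByExpr, glmQLFit, glmQLFTest) in 1 fit with 5 groups of dates, which left 18033 IDs, all 92 genes among them. Contrasts over several groups weight each date equally. SE was the size of the log2 fold change over the root of F. P-values were adjusted by Benjamini-Hochberg over all tested IDs. The fit was tested on simulated counts with the same spread for all IDs. It recovered 10% of 2-fold and 81% of 4-fold changes between 9 to 15 and 2 to 5 September. For the last 2 dates against 18 to 26 September it recovered 8% and 58%. For late against summer leaves it recovered 26% and 98%. Intervals and floors cover counting error alone and leave out the scatter among dates. Reads are not independent molecules, so the counting error itself may be larger than they show.

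The genes, groups and contrasts were chosen with earlier results of these data known. Named genes were taken by rank: abundance, ratio to the higher of the summer and late mean, fold change in each tested contrast, and the longest run of neighbours. The first 2 of each are printed (3 for the run and for genes higher in late leaves), since the files pair no names with IDs, and genes chosen after their values were seen are marked. Gene lists and promoters were not used for the same reason. Alternatives were other scalings, DESeq2, limma-voom, no filter, all 16 libraries, the compared groups alone, each library left out, and other selection limits.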

Additional observations from a re-analysis of the deposited data

Results flagged for a closer look

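Among 48 groups of 4 to 6 dates, 3 held a value past Dixon's 95% limit for its distance from the next one, where chance gives about 1 in 20 groups. Potri.019G087600 had 353 normalised counts on 27 July, against 171 on the nearest other summer date. Potri.013G133800 had 27.2 on 13 September, from 76 counts, against 14.0 on the nearest other early September date. Potri.004G200400 had 41.8 on 11 September, from 34 counts in the shallowest library, against 7.40 on the nearest other early September date. This gene was named for the large share of its sum on 1 date, so the chance rate does not apply to it.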

How the results depend on the processing

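The number of selected genes depended on the limits and on the scale. It was 21 with a limit of 2-fold and 264 with a limit between 1 and 1.5, 164 with a minimum of 5 and 49 with a minimum of 20, and 57 without the last 2 dates, an alternative chosen after seeing the data. With library totals alone it was 369, of which 70 were among the 92, and that scale puts the median log2 ratio of early September to summer, over IDs with a mean of 10 or more, at 0.69, where the deposited scale puts it at 0.07. Leaving out 1 date gave 69 to 121 genes, and 37 of the 92 were selected whichever single date was left out. Medians in place of means gave 87 genes, 59 of them shared, and 19 September counted as a late date gave 84, of which 81 were shared. Changes of the genes named by their fold change in a tested contrast stayed on the same side of the threshold in 133 repeats. They no longer passed in 28, of which 15 were for Potri.005G071300 and 11 for Potri.015G086800. Other named genes are not in this count. With library totals alone, 51.7% of all tested IDs were higher in late than in summer leaves and 16.8% lower. For late against summer leaves, the count of 3 higher genes was 1 under DESeq2, upper quartile scaling and relative log expression scaling. This count was 6 with no filter and 41 with library totals alone. It was 1 to 8 with 1 date left out. The count of 23 lower genes was 4 with library totals alone and 12 to 28 with 1 date left out. The count of 49 genes lower on the last 2 dates ran from 34 to 52 with 1 date left out and from 34 to 61 under the other alternatives, with 0 higher in each. No gene of the set was called between 9 to 15 and 2 to 5 September in any alternative. Beyond the scale's own shift, causes were not tested. No paired analysis was possible because the labels give no replicate numbers.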
